A study of Mus musculus with 7 samples.

Results

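The genes described here encode the histones that package newly made DNA, together with the linker histone genes that carry the same kind of symbol. They were chosen by symbol from protein-coding genes of the RefSeq annotation of GRCm38.p6 (Hist1h to Hist3h names, or the newer H2ac, H2bc, H3c, H4c and H1f names followed by a number), which found 67 of 21883 genes. Of these, 63 lay in 3 multi-gene clusters: 22 on chromosome 13 from 21715711 to 22043658 (H2bc13 to H2bc11, 328 kb, called the first cluster below), 31 on chromosome 13 from 23531044 to 23934913 (H4c8 to H2ac1, 404 kb, the second cluster), and 10 on chromosome 3 from 96219885 to 96270192 (H2ac21 to H2bc18, 50.3 kb). The other 4 stood alone: H1f10 and H1f8 on chromosome 6, and H1f0 and H1f7 on chromosome 15. These 4 linker genes are not replication-dependent by what is known of them, so the name of a replication-dependent set holds for the 63 clustered genes, and the 4 are given apart. The rule found no gene on chromosome 11.

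The study mapped 2 modifications of lysine 27 of histone H3 by chromatin immunoprecipitation and sequencing: trimethylation (H3K27me3), which Polycomb Repressive Complex 2 lays down and which marks silenced genes, and acetylation (H3K27ac), which marks active promoters and enhancers. The cells were globose basal cells, the dividing progenitors of the olfactory epithelium, isolated from wild-type adults that had received methimazole 7 to 10 days earlier, a drug that destroys the olfactory neurons and supporting cells and so sets off regeneration. All libraries share this lesion; no unlesioned or mutant group was analysed here, and each immunoprecipitation replicate pooled selected cells of 3 mice, chosen by surface c-Kit. There were 2 libraries per mark and 3 inputs, and 1 broad peak list per immunoprecipitated library, holding 77680 and 64279 peaks for H3K27ac and 95749 and 65172 for H3K27me3 in replicates 1 and 2. The number of reads behind these lists is unknown, so no interval on a peak's height is given, and a spread over 2 libraries is the only measure of error. In such a cell suspension, a mark carried by fewer cells and a weaker mark in every cell cannot be told apart.

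Core histones H2A, H2B, H3 and H4 form the spool around which DNA winds, and linker histone H1 binds where DNA enters and leaves it. Most of their genes are short and lack introns, and they are switched on together as cells enter S phase, when new DNA must be packaged. Their mRNAs end in a stem-loop in place of a poly(A) tail. Transcription is organised in the histone locus body, a nuclear body built around NPAT, and gene types differ in the promoter elements they carry. A smaller number of histone genes, the replacement variants, are transcribed throughout the cell cycle, and a few are used mainly in germ cells.

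The sequences below show the promoters on which the results turn, from the RefSeq promoter table of GRCm38.p6, which had an entry for 62 of the 67 genes. Capitals mark words searched on both strands, so that each may appear as its reverse complement. They are CCAAT, a general promoter element, and TATAAA, where the transcription machinery is placed. The octamer ATTTGCAT is the site bound by the protein of Pou2f1. GGTCC is a core found in many H4 promoters, and the H1 box, AAACACA, is known from linker histone genes. No 2 of these words overlapped in the printed stretches. H1f4 stands for a clustered linker gene (250 bases before its start, chr13:23622559-23622808, minus strand) and H4c3 for the clustered gene with the tallest H3K27ac peak in replicate 1 (chr13:23698459-23698708, minus strand). H2ac8 and H2bc8 share the 179 bases between their starts (chr13:23571221-23571399, plus strand) and 1 H3K27ac peak. H2bc23 with H2ac23 (chr13:21810200-21810366, plus strand) and H2bc1 with H2ac1 (chr13:23934187-23934436, plus strand, the 250 bases before the H2ac1 start) are pairs with no H3K27ac peak. H4c17 (chr13:21811496-21811745, plus strand) and H4c18 (chr13:21832198-21832447, minus strand) are nearly the same sequence and are shown because a read from such a place may not have a single origin. H1f0 (chr15:79027962-79028211, plus strand) is a replacement gene with both marks.
H1f4: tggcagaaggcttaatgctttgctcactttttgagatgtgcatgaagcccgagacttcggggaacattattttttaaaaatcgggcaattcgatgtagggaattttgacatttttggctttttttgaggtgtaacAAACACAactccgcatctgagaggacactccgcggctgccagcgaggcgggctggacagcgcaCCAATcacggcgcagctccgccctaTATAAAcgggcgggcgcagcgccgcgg
H4c3: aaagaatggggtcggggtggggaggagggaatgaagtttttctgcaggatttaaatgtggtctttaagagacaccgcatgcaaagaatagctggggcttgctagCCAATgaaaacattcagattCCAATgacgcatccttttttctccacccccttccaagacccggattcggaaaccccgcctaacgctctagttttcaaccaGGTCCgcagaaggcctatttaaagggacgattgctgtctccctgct
H2ac8/H2bc8: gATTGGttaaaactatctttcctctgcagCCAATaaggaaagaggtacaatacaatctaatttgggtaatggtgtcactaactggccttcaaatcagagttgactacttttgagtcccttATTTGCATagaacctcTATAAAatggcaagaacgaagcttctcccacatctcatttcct
H2bc23/H2ac23: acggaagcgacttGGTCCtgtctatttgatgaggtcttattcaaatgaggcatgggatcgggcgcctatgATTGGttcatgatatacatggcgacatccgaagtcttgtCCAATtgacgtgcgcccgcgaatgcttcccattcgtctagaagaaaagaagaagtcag
H2bc1/H2ac1: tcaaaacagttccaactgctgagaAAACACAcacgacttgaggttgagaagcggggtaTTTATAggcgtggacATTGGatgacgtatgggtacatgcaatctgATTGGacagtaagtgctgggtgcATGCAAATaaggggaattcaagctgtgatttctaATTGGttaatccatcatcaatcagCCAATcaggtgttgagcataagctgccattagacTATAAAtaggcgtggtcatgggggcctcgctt
H4c17: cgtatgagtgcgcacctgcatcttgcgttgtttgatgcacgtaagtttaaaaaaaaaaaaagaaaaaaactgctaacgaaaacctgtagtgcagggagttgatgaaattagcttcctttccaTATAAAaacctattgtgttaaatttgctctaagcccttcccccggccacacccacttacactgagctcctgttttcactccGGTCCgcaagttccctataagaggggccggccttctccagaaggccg
H4c18: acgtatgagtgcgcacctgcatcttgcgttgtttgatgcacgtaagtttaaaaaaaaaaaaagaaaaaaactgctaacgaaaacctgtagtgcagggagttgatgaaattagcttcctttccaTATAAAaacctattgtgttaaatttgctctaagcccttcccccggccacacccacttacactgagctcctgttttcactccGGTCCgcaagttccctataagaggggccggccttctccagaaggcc
H1f0: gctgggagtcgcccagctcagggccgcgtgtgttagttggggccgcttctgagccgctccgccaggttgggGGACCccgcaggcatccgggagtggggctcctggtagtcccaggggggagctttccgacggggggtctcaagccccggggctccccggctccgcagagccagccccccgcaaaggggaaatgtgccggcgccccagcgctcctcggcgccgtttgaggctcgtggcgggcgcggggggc

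The words were not spread evenly over the gene types. CCAAT was present in the 250 bases upstream of 49 of the 62 genes (79.0%), against 36.3% of 17491 protein-coding genes with an entry. It was found in all 6 clustered H1 genes, all 17 H2A and all 14 H2B genes with an entry, 8 of 10 H3 genes and 3 of 11 H4 genes, of which H4c3 carries it 146 and 126 bases before the start. TATAAA was present in 28 of 62 (45.2%), against 12.4% of all genes. In H1f4 it lay 27 bases before the start and the CCAAT word 52 bases before it. The octamer was present in 12 of 62 (19.4%, against 1.61%), in 6 H2A and 6 H2B genes and in no H1, H3 or H4 gene. Paired H2A and H2B genes read the same bases, so those 12 are not separate finds. The same holds for CCAAT and the other words in paired H2A and H2B genes. GGTCC was about as frequent in the set (25 of 62, 40.3%) as in all genes (42.8%), but 10 of 11 H4 genes held it, in H4c3 at 46, H4c17 at 47 and H4c18 at 46 bases before the start. AAACACA was present in 5 of 6 clustered H1 genes and in 9 of 62 genes in all (14.5%, against 5.44%). The 4 isolated linker genes held CCAAT in 1 case and neither TATAAA nor the octamer. A match is a run of letters and not a shown binding site.

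H3K27ac lay over most clustered histone genes and H3K27me3 over few of them. A gene was counted for a mark when a peak touched its body or the 1 kb on either side in both libraries of that mark. By this count 57 of 67 genes carried H3K27ac (85.1%; background 67.5% of all protein-coding genes) and 4 carried H3K27me3 (5.97%; background 38.9%). The 4 were the isolated linker genes. Among the 63 clustered genes, 55 carried H3K27ac (87.3%) and 0 carried H3K27me3. Both marks were called on 2 of 67 genes (2.99%; background 28.0%), H1f0 and H1f10, and 5 genes had no peak in any library (background 16.6%). By library, H3K27ac peaks touched 61 and 57 of the 67 genes (91.0% and 85.1%; background 70.9% and 68.9%), and H3K27me3 peaks touched 14 and 4 (20.9% and 5.97%; background 58.8% and 41.8%). Both H3K27ac libraries lay above both H3K27me3 libraries, with a difference of 50 genes between the means of the marks. The exact permutation test over the 4 libraries (two-sided) gave p = 0.333, the smallest that 2 against 2 libraries allow; no difference could give a smaller one.

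Histone genes are short, with a median length of 496 bp against 17170 bp for all protein-coding genes, and a short window has fewer places for a peak to fall. Among the 549 other protein-coding genes of at most 1 kb that are neither olfactory nor vomeronasal receptors, H3K27ac was called on 52 (9.47%) and H3K27me3 on 54 (9.84%). Windows of equal size for every gene, 1 kb on either side of a listed transcription start, gave H3K27ac on 52 of 62 histone genes (83.9%; background 61.4%) and H3K27me3 on 4 (6.45%; background 24.8%). H3K27ac stood above the share of the compared genes in both settings. H3K27me3 did not stand apart from the short genes in replicate 1, with 20.9% of the 67 genes against 20.6% of the short genes, and in replicate 2 it was 5.97% against 12.2%. The 67 include the 4 isolated linker genes, which are all longer than 1 kb. For the 63 clustered genes the shares were 15.9% and 0%, below the short genes in each library.

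**Figure D1:**
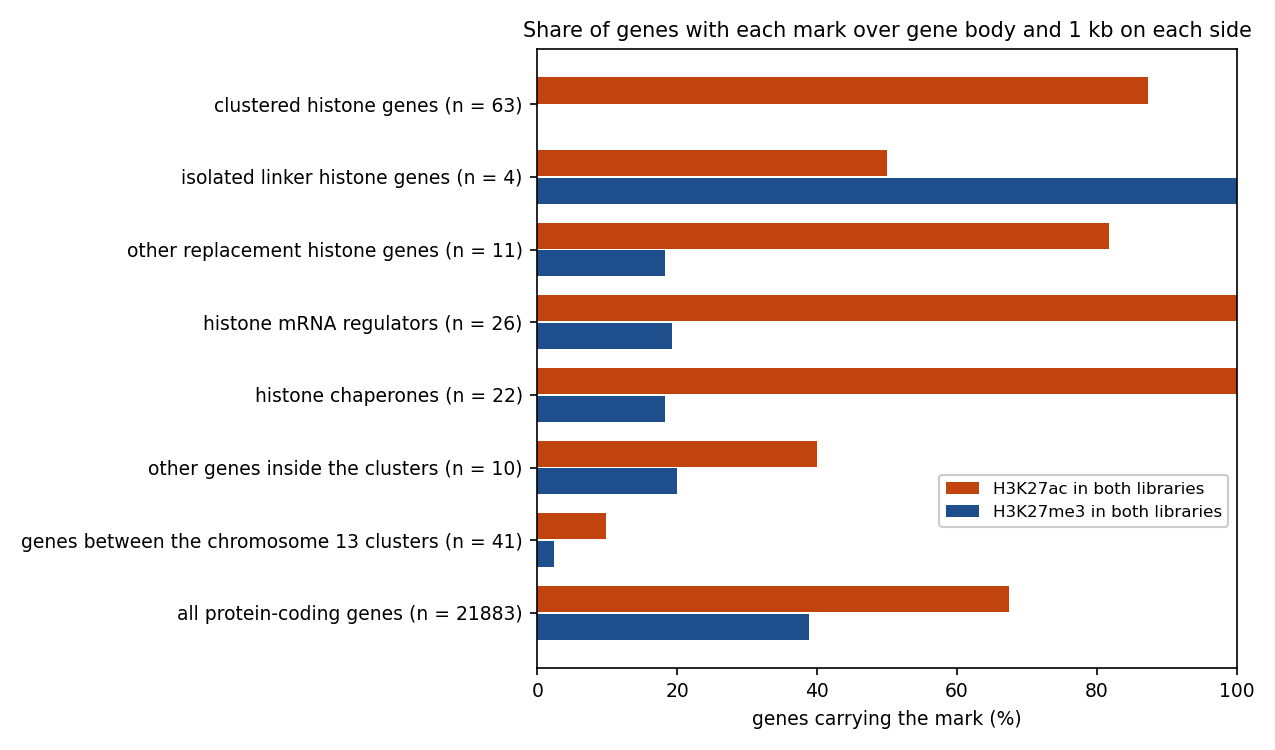
Share of genes (horizontal axis, %) carrying H3K27ac (orange) or H3K27me3 (blue) in both libraries, over the gene body and 1 kb on each side, for the histone gene sets, fixed lists of related genes, neighbouring genes and all 21883 protein-coding genes. Clustered histone genes show 87.3% H3K27ac and no H3K27me3 bar, while all 4 isolated linker genes carry H3K27me3. The other genes inside the clusters include the histone gene H4bc24, whose symbol the rule does not take.

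The heights of the peaks were compared as well as their number. Each gene was given the fold enrichment of its highest peak from the authors' peak caller, or 0 where there was none. The median over the 67 genes was 10.5 in H3K27ac replicate 1 and 6.77 in replicate 2, against 6.11 and 4.81 over all protein-coding genes. For H3K27me3 the medians were 0 and 0, against 3.07 and 0 over all genes. Such medians mix height with frequency, and genes that share a peak repeat its value. Counted once each, H3K27ac peaks over histone genes had a median fold of 9.24 and 6.75. All peaks of the lists, including those away from genes, had 3.61 and 3.43. The regulators and chaperones described below had higher gene medians than the histone genes, 10.7 and 8.01, and 11.5 and 8.88. The median share of the window under H3K27ac was 52.3% and 54.5%, against 5.36% and 4.23% over all genes, whose windows are far longer. Replicate 1 gave the higher fold at each of the 57 genes with H3K27ac in both libraries, and the median over all peaks of the list was also higher there (3.61 against 3.43). The order of the genes was partly shared between libraries: Spearman's rho was 0.696 over those 57 genes, many of which share a peak with a neighbour.

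**Figure D2:**
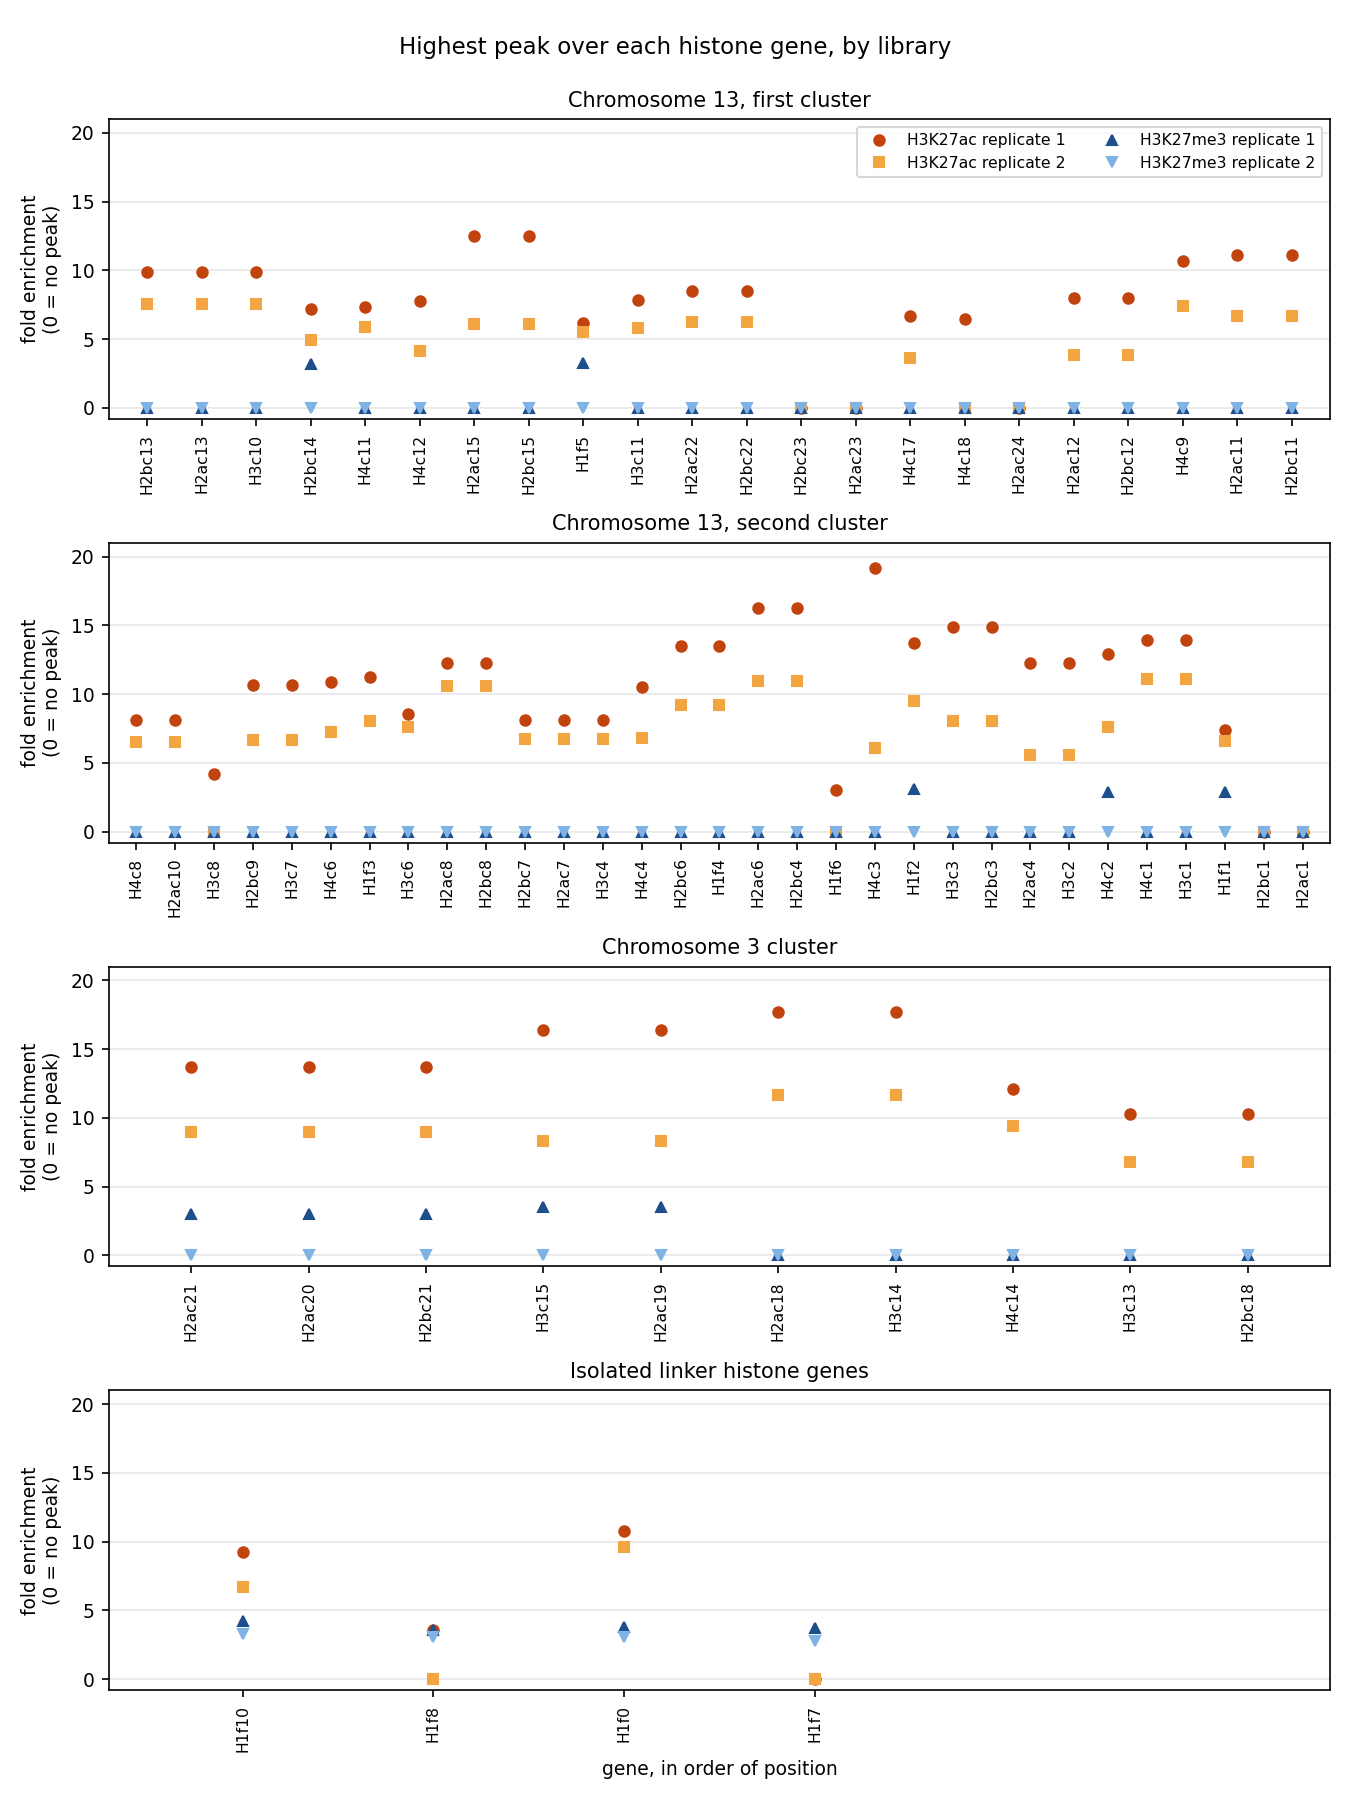
Fold enrichment of the highest peak over each of the 67 histone genes (vertical axis; 0 where no peak), in order of position along each cluster, for the 4 libraries. H3K27ac points (orange) run along the clusters with no point above 0 at H2bc23, H2ac23, H2ac24, H2bc1 and H2ac1, and H3K27me3 replicate 2 (light blue) leaves 0 only at the isolated linker genes.

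The core histone genes carried H3K27ac whatever the type. Among clustered genes it was called on 14 of 17 H2A, 14 of 16 H2B, 11 of 12 H3 and 11 of 12 H4 genes, and on 5 of 6 H1 genes. The median fold in replicates 1 and 2 was 11.1 and 6.70 for H2A, 10.5 and 6.73 for H2B, 10.5 and 7.16 for H3, 10.6 and 6.66 for H4, and 9.34 and 7.30 for H1. These medians lie closer to each other than the replicates of any type do. They are not separate measurements, since neighbouring genes of different types often take their value from the same peak. In replicate 1, 24 of 49 peaks over histone genes touched more than 1 of them, and in replicate 2, 21 of 40. The median share of the window covered was lower for H4 genes, 34.8% and 39.5% against 50.3% to 59.1% for the other types. Their median length (405.5 bp) was only slightly shorter. The H4 values were widely spread, up to 93.2% and 100% at H4c14. The lower median rests in part on H4c17 (13.2% and 14.5%) and H4c18 (15.3% and 0%), whose upstream sequences are nearly the same.

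**Figure D3:**
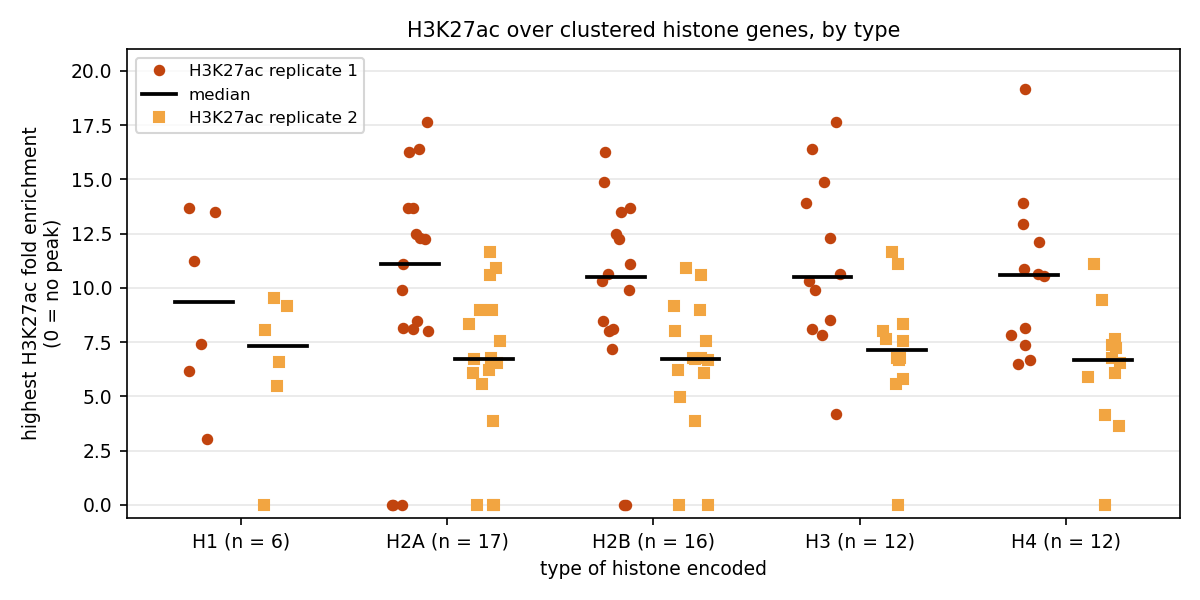
Highest H3K27ac fold enrichment (vertical axis; 0 where no peak) of each clustered gene by the histone it encodes, for replicate 1 (orange circles) and replicate 2 (yellow squares), with the median as a bar. The bars of the 5 types lie at 9.34 to 11.1 in replicate 1 and at 6.66 to 7.30 in replicate 2, and single genes spread from 0 to 19.2. Genes that share a peak, often of different types, are drawn as separate points.

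The strongest H3K27ac was found on chromosome 3 and in the middle of the second cluster of chromosome 13. H2ac18 and H3c14, a chromosome 3 H2A gene and H3 gene that lie side by side, were both touched, within 1 kb, by a peak of 17.7 in replicate 1 and 11.6 in replicate 2. That peak covered the H2ac18 start and ended before the H3c14 start in both libraries, and H3c14 had no peak over its gene body. H2ac6 and H2bc4 reached 16.3 and 10.9, and H4c1 with H3c1 13.9 and 11.1. Each of these pairs takes its value from 1 peak per library, so the values count once. H2ac19 and H3c15, copies of H2ac18 and H3c14 in opposite orientation, had 16.4 and 8.35, from a peak that covered the H2ac19 start but not that of H3c15. H1f2, a somatic linker gene expressed in most cell types, had 13.7 and 9.51, and H2ac20 had 13.7 and 8.99 from a peak that also gives H2ac21 and H2bc21 their values. These 10 genes had the best mean rank over the libraries, with H2ac20 tied in the last place with H2ac21 and H2bc21. H4c3 had the highest single value, 19.2 in replicate 1, but 6.06 in replicate 2, under narrow peaks of 539 and 476 bp. The replicates therefore put H4c3 at different places in the order of the genes. Among the other linker genes, H1f4 reached 13.5 and 9.18. The annotated H2bc6 gene spans 37455 bp, and the peaks counted for it include ones shared with H4c4 and H1f4. The peak shared with H1f4 also covers the listed H2bc6 start. H2bc22 spans 14079 bp and H2bc4 8282 bp, and each had 1 peak per library, shared with H2ac22 and H2ac6.

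The chromosome 3 cluster was the most completely covered. All of its 10 genes carried H3K27ac, with a median fold of 13.7 and 8.99, from 10.3 and 6.77 at H2bc18, the last gene, upwards. In the second cluster of chromosome 13, 27 of 31 genes did, with 11.3 and 6.78, and in the first 18 of 22, with 8.02 and 5.86. The order of the clusters was the same in both libraries. Genes that share a peak repeat its value in these medians. On chromosome 3, the starts of H3c14 and H3c15 lay under no peak. The first gene of the second cluster, H4c8, had 8.14 and 6.53, and the ends of the first cluster, H2bc13 and H2bc11, had 9.89 and 7.54, and 11.1 and 6.70.

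H3K27ac followed the histone genes themselves within the clusters. In the second cluster, the windows of histone genes made up 26.3% of the span and held 78.3% and 87.1% of the bases under H3K27ac. In the first cluster they made up 17.1% and held 74.3% and 83.0%. Outside these windows H3K27ac covered 2.97% and 1.58% of the second cluster and 2.16% and 1.20% of the first. On chromosome 3, where the genes are closer together, it covered 24.9% and 31.1% of the sequence between the windows as well. Peaks over histone genes had a median length of 1295 and 1533.5 bp, against 868 and 863 bp over all peaks of the lists. The lists include peaks away from genes, and a longer peak touches a gene window more easily. Peaks over other genes were not compared for length. Of 49 peaks over histone genes in replicate 1, 24 touched more than 1 histone gene, as did 21 of 40 in replicate 2, with at most 3 genes under a peak. The longest, 8.70 kb in replicate 2, touched H2ac21, H2ac20 and H2bc21.

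Along the genes, H3K27ac began upstream of the start and ended near the end of the short transcript. At the start, 82.8% and 79.3% of the 58 clustered genes with a listed start lay under a peak, against 59.0% and 55.2% of all genes. At 0.65 kb upstream the values were 60.3% and 62.1% (31.0% and 29.0% of all genes), and at 1 kb upstream they were 31.0% in both libraries (19.7% and 17.5%). Of the 58 genes, 18 lie in head-to-head pairs with both starts listed, 164 to 281 bp apart. Their upstream side holds the partner gene, so part of the upstream coverage lies over a neighbouring histone gene and counts the same peak again. Downstream, the share was 86.2% and 75.9% at 0.45 kb but 43.1% and 37.9% at 0.6 kb (47.2% and 44.3% of all genes). At 1 kb downstream, 22.4% and 25.9% was below the 30.5% and 27.8% of all genes. H3K27me3 covered 5.17% and 0% of the starts, against 27.5% and 18.4%.

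**Figure D4:**
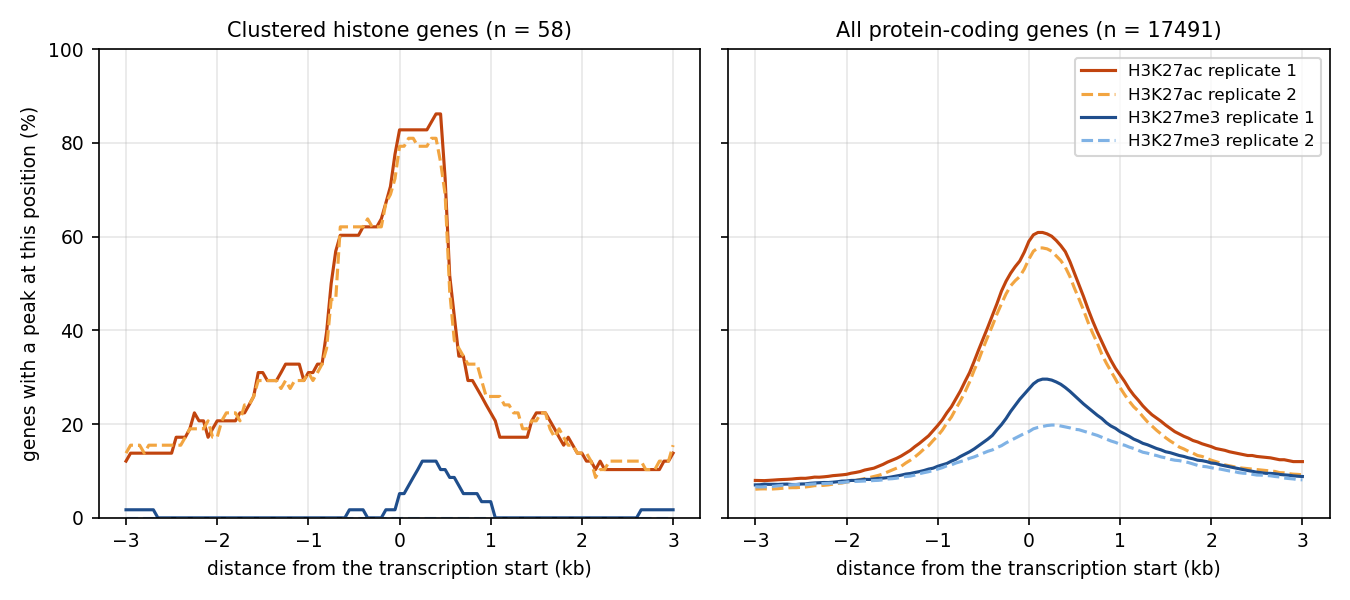
Share of genes with a peak at each distance from the transcription start (horizontal axis, kb; vertical axis, %), for 58 clustered histone genes (left) and 17491 protein-coding genes (right), by library. H3K27ac over histone genes stays above 80% in replicate 1 from the start to 0.45 kb and falls to 43.1% at 0.6 kb, while H3K27me3 replicate 2 stays at 0. Of the 58 genes, 18 lie in head-to-head pairs with both starts listed, whose upstream side holds the partner gene.

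H2A and H2B proteins pair in the nucleosome, and many of their genes are arranged head to head. In the set, 9 pairs of genes had listed starts within 1 kb of each other and pointed apart, all of them an H2A and an H2B gene, with 164 to 281 bp between the starts (median 180 bp). Genes without a listed start could not be paired, among them H2bc4 beside H2ac6, H2bc21 beside H2ac20 and H3c1 beside H4c1. Further pairs may therefore be missed. In 7 of the 9 pairs, 1 H3K27ac peak covered both starts, in each library. At H2ac8 and H2bc8, whose shared promoter is printed above with an octamer 59 bases and a TATA word 43 bases before the H2bc8 start, that peak had a fold of 12.3 and 10.6. The exceptions were H2bc23 with H2ac23 and H2bc1 with H2ac1, neither of which had a peak of either mark. No H3K27me3 peak covered both starts of a pair.

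The genes without H3K27ac include those known from germ cells. H2bc1 and H2ac1, the testis H2B and H2A genes at the far end of the second cluster, had no peak in any of the 4 libraries, and their nearest H3K27ac peak lay 2.30 and 3.01 kb away in replicate 1 and 65.3 and 66.0 kb away in replicate 2. H1f6, the testis linker gene inside the second cluster, had a small peak of 3.04 in replicate 1 and none in replicate 2, between H2bc4 (16.3 and 10.9) and H4c3. H1f7, the spermatid linker gene, had no H3K27ac peak, with the nearest at 5.50 and 38.5 kb. H1f8, the oocyte linker gene, had 3.57 in replicate 1 and none in replicate 2. None of these 5 genes carried H3K27ac in both libraries, and the 3 that lie inside the clusters had no H3K27me3 either. Besides these, the second cluster had 1 gene that missed the call, H3c8, an H3 gene with 4.20 in replicate 1 and no peak in replicate 2. Its nearest replicate 2 peak lay 1.35 kb away.

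The remaining gaps lay together in the first cluster, among genes with copied promoters. H2bc23, H2ac23 and H2ac24 had no peak in any library. H4c17 had narrow H3K27ac peaks of 6.67 and 3.61, covering 317 and 348 bp, and H4c18 had 6.49 over 369 bp in replicate 1 and none in replicate 2. In the 250 bases upstream, H4c17 and H4c18 shared an exact run of 249 bases, H2bc23 and H2ac24 one of 233, and H2ac23 and H2ac24 one of 150. On chromosome 3, H3c15 and H3c14 shared 231 bases and H2ac19 and H2ac18 shared 169, and the peaks touching the windows of these 4 genes had folds of 16.4 to 17.7 in replicate 1 and 8.35 to 11.6 in replicate 2, although the starts of H3c14 and H3c15 lay under none. No other pair shared 100 bases or more. Reads from copied sequence can be discarded or placed at random by an aligner, how they were treated is not given in the sources used here, and the part of this in the gaps was not tested. Without these 9 genes, H3K27ac was called on 52 of 58.

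**Figure D5:**
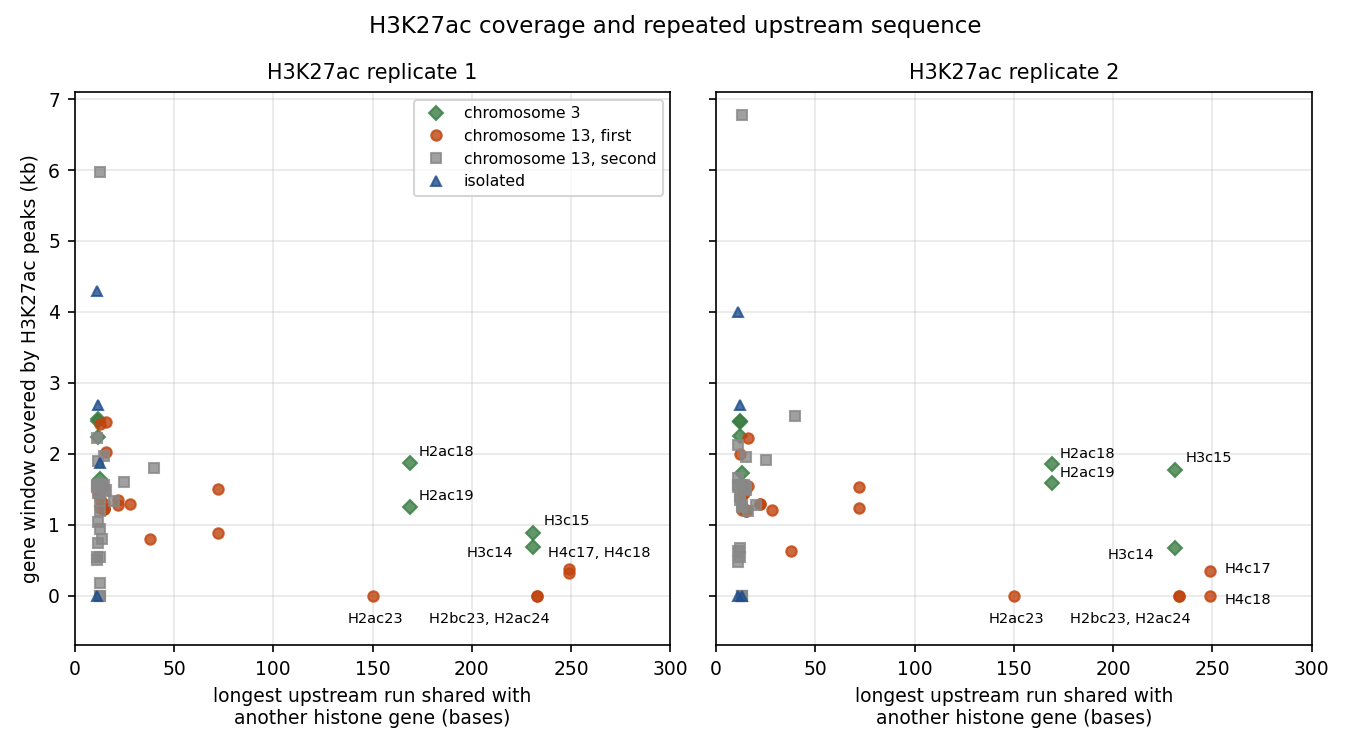
Bases of each gene window under H3K27ac (vertical axis, kb) against the longest exact run of upstream sequence shared with another histone gene (horizontal axis, bases), for 62 genes with a listed promoter, by library. The copied genes of the first chromosome 13 cluster lie at 0 to 0.369 kb and the copied genes of chromosome 3 at 0.667 to 1.88 kb.

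H3K27me3 over histone genes was low where it was found. The replicate 2 library had no H3K27me3 peak over any clustered gene. In replicate 1, 10 of the 63 had one: H3c15 and H2ac19 shared a peak of 3.52, H1f5 had 3.26, H2bc14 3.22 and H1f2 3.09. H2ac21, H2ac20 and H2bc21 shared one of 3.03, and H4c2 had 2.86 and H1f1 2.85. The median fold of that list was 3.46, and these peaks ranked between its 7.38th and 54.0th percentile. All 10 genes carried H3K27ac in both libraries, with folds of 6.16 to 16.4 in replicate 1 and 4.95 to 9.51 in replicate 2. Peaks found in 1 library near the threshold of the caller give no call in both, and whether they are signal was not tested.

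The isolated linker genes were the members with H3K27me3 in both libraries. H1f10 and H1f0 encode replacement linker histones made outside S phase. H1f10 had H3K27me3 of 4.27 and 3.31 and H3K27ac of 9.24 and 6.74. H1f0 had H3K27me3 of 3.78 and 3.09 and H3K27ac of 10.8 and 9.63. At both, H3K27ac was the higher mark in each library, though folds of different antibodies are not on a common scale. H1f8 had H3K27me3 of 3.59 and 3.09, and H1f7 had 3.69 and 2.80. The −log10 q of the highest H3K27me3 peaks of the 4 genes lay between 2.29 and 3.34 in replicate 1 and between 1.08 and 1.75 in replicate 2, so 0 of the 4 passed in both libraries at a −log10 q of 2. At H1f0 the peaks of the replicates did not touch each other, one lying at chr15:79026945-79027915 and the other at chr15:79028058-79029209. At H1f8 none of the 2 peaks of replicate 1 overlapped a peak of replicate 2.

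Other genes among and between the clusters carried either mark or none. Inside the cluster spans lay 10 other protein-coding genes, of which 4 carried H3K27ac (40.0%) and 2 carried H3K27me3 (20.0%). Among the 10 is H4bc24, also named Hist1h2br, a histone gene in the first cluster whose symbol the rule does not take. It had no peak in any library. The zinc finger gene Zfp184, in the first cluster, had H3K27ac of 12.7 and 8.49 and no H3K27me3. Pom121l2 had H3K27me3 of 7.70 and 5.96 and no H3K27ac, and its neighbour Prss16, a serine protease gene, had H3K27me3 of 7.16 and 4.68 and H3K27ac of 3.74 and 2.91. H3K27me3 covered 5.38% and 8.67% of the first cluster, with 7.29% and 0% of its bases in histone gene windows. The 1.49 Mb between the chromosome 13 clusters (22044659 to 23530043) hold 41 protein-coding genes, 36 of them vomeronasal receptor genes of the Vmn1r family, and none of those 36 had a peak in any library. H3K27ac was called on 4 of the 41, among them Zfp322a (10.7 and 7.07) and Abt1 (8.49 and 8.37), and H3K27me3 on 1, Btn1a1 (5.14 and 3.60).

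Lists of genes that serve histone synthesis were counted in the same way. Of 26 regulators of histone gene transcription and mRNA processing, 26 had H3K27ac (67.5% of all protein-coding genes) and 5 had H3K27me3 (19.2%, against 38.9%), with a median H3K27ac fold of 10.7 and 8.01. Npat, the scaffold of the histone locus body, had 12.1 and 6.87, and Casp8ap2, another part of that body, had 10.7 and 8.73. Hinfp, an activator of H4 genes, had 9.10 and 6.51, and Pou2f1, whose protein binds the octamer, had 22.6 and 12.1. Slbp, whose protein binds the stem-loop of histone mRNA, had 14.5 and 13.4. The 5 with H3K27me3 were Nfyc, Ccne1, E2f1, Upf1 and Sympk, a processing scaffold with the highest values (6.28 and 5.21). A list of 22 histone chaperones had H3K27ac on 22 of 22 and H3K27me3 on 4 (18.2%; Hira, Cabin1, Daxx and Ipo4), with a median H3K27ac fold of 11.5 and 8.88. These genes are longer than the histone genes, and their windows are larger.

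Of 15 replacement variants, 11 carried H3K27ac (73.3%) and 6 H3K27me3 (40.0%), close to the 67.5% and 38.9% of all protein-coding genes. However, 4 of the 15 are the isolated linker genes above, all 4 of them called for H3K27me3. Among the other 11 variants, 9 carried H3K27ac (81.8%) and 2 carried H3K27me3 (18.2%). H3f3b and H3f3a, which both encode H3.3, had H3K27ac of 24.9 and 20.2, and 19.7 and 14.6, higher in each library than any clustered gene. H2az1, a gene for H2A.Z, had 22.9 and 13.3, also above every clustered gene in its library. H2ax, used in the response to DNA breaks, had 10.8 and 7.35, and Cenpa, the centromeric H3, had 7.01 and 5.36. Hils1, a spermatid linker gene, had H3K27me3 of 3.41 and 3.48 and no H3K27ac.

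The label of the cells was set against marker genes in the same way. All 12 globose basal and progenitor markers carried H3K27ac, Kit among them (6.80 and 5.46), and 7 carried H3K27me3 as well. H3K27ac was also called on 3 of 5 horizontal basal, 5 of 5 sustentacular, 5 of 5 mature neuron, 5 of 6 leukocyte and 1 of 5 mast cell markers, and H3K27me3 on 5, 2, 3, 3 and 2 of them. With 67.5% and 38.9% of all protein-coding genes called, counts such as 3 of 5 for H3K27ac and 2 of 5 for H3K27me3 are near the background. For H3K27ac, the sustentacular (100%), mature neuron (100%) and leukocyte (83.3%) markers lay above 67.5%, as the globose basal markers did. Mast cell markers (20.0%) lay below it. The H3K27ac count therefore does not set the labelled cells apart from sustentacular cells, mature neurons or leukocytes. Whether other cells in the suspension contributed to the peaks over histone genes was not tested.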

How the data were processed

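Peaks of H3K27me3 and H3K27ac in 4 libraries were analysed; the inputs were not used here. The submitters' processing notes name fastp, Bowtie, Picard, MACS2 and build GRCm38 (mm10), without roles or order; versions and thresholds are not given in the sources used here, and the lowest −log10 q in the 4 lists was 1.00 to 1.01. The deposited broad peak lists give, per peak, the authors' fold enrichment (a linear ratio), −log10 p, −log10 q and a score derived from q. There is 1 list per library, and depth is unknown. A copied region can lose or share reads, which bears on repeated histone genes.

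Gene windows (gene body and 1 kb on each side, overlap of at least 1 bp) were computed with Python 3.11.15, numpy 2.4.6 and pandas 2.3.3, and the permutation test with scipy 1.17.1. The overlap code was tested on simulated data. The 67 genes and all lists were chosen with earlier results of these data known. Clusters are runs of at least 3 members with gaps of at most 500 kb. Named with values are the 10 genes of best mean rank for each mark, genes with both marks, genes without H3K27ac, cluster ends, isolated genes and genes with copied promoters. H4c3, H1f4, H1f6, H3c8, H2ac8, H2bc8 and the clustered genes with H3K27me3 in replicate 1 alone, where outside that rule, were chosen after their values were seen. Neighbouring genes and list members were named likewise, by their values or known role. Replicates are pools of 3 mice each, taken as separate as the labels give them. Alternatives were stricter peaks, other windows and overlaps, either library, single libraries and subsets of the genes.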

Additional observations from a re-analysis of the deposited data

How the results depend on the processing

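Over the alternatives, 31 of 45 values moved little and 14 moved by more than 1.5 times, all of them counts of H3K27me3 or of both marks, which rest on 4 and 2 genes. The count of H3K27ac, 57, ranged from 51 (of 58, without genes longer than 1 kb) and 52 (−log10 q of at least 5, or windows around 62 listed starts) to 61 (windows of 2.5 kb, or either library). H3K27me3 and both marks were called on 0 genes when peaks had to reach a −log10 q of 2, and likewise with 5. With the gene body alone H3K27me3 was called on 2 genes and both marks on 0. With a peak in either library the counts were 14 and 13. Leaving out 1 library gave 57 to 61 for H3K27ac, 4 to 14 for H3K27me3 and 2 to 12 for both marks. The 61 came without H3K27ac replicate 2, and the 14 and 12 without H3K27me3 replicate 2. For the 63 genes inside the clusters H3K27me3 and both marks were called on 0, by construction, since all 4 genes lie outside. Of 2 alternatives chosen after seeing the data, leaving out genes longer than 1 kb gave 51 for H3K27ac and 0 for H3K27me3 and for both marks, since all 4 genes with H3K27me3 are longer, and leaving out genes with copied promoters gave 52, 4 and 2. At a −log10 q of 2 the calls were lost in H3K27me3 replicate 2 alone, where the highest peaks of the 4 genes reached 1.08 to 1.75, against 2.29 to 3.34 in replicate 1. The difference between marks per library was 45.5 to 56, with p = 0.333 (exact permutation test) each time. No paired analysis was possible because peak lists give no test per gene and the same number does not mean the same pool: the titles of the inputs tie the first H3K27me3 library to the second H3K27ac library. Depth limits every absent peak, which may be one below detection.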

Other observations

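Histone genes outside the symbol rule, named after their values were seen, included a group on chromosome 11. H2aw, an H2A gene, had H3K27ac of 15.0 and 12.2 in replicates 1 and 2, and H2bu2, an H2B gene, had 6.79 and 4.46. Each had H3K27me3 in replicate 1 alone (3.17 at H2aw, 4.12 at H2bu2). Their neighbour H3f4, the testis H3 gene, had no H3K27ac peak and H3K27me3 of 6.12 and 3.82, higher in each library than at any clustered histone gene. H4f16, an H4 gene on chromosome 6, had H3K27ac of 20.0 and 12.1 and no H3K27me3. H4bc24, inside the first cluster of chromosome 13, had no peak of either mark in any library.

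Of 36 histone-named genes outside the rule, 22 lie on the X or Y chromosome. None of these 22 had an H3K27ac peak, 20 had no peak in any library, and 2 had H3K27me3 in replicate 1 alone. Many of them carry H2al1 symbols and lie close together on the X chromosome. Their sequences were not compared, and whether reads of copied sequence were lost there was not tested. All 3 annotated pseudogenes with symbols of the rule had H3K27ac in both libraries: H2ac5-ps with 14.9 and 8.03, H2ac14 with 7.19 and 4.95, and H1f11-ps with 2.60 and 3.27. H2ac5-ps and H2ac14 have the same values as H3c3 and H2bc14, beside which they lie.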
